A study of Mus musculus with 19 samples.

Results

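The synaptic vesicle and release machinery was followed here as 36 genes, each looked up by symbol from its Ensembl gene ID, and all 36 were found among the 53801 gene IDs counted in the series. They share a function, and the list was drawn up with earlier results of these data known. Reads were counted per gene in 19 RNA sequencing libraries, each from the homogenised hippocampus and cortex of 1 C57BL/6 mouse aged 3 months. Every animal had received adeno-associated virus AAV1 in the cerebral ventricles as a newborn pup, and every vector carried GFP. In PR50 mice (n = 7, 4 females and 3 males) GFP was joined to 50 repeats of proline-arginine, poly(PR). PR-control mice (n = 4, 3 females and 1 male) received GFP alone. In GR100 mice (n = 4, 3 females and 1 male) GFP was joined to 100 repeats of glycine-arginine, poly(GR). GR-control mice (n = 4, 2 females and 2 males) also received GFP alone. Both repeat proteins can be made from the expanded C9orf72 repeat found in amyotrophic lateral sclerosis and frontotemporal dementia. The series' design text calls each set of controls harvest-matched, and each treated group was compared with its own controls. The labels give no promoter for the transgenes, and the vector reaches whichever cells the injected virus infects. In these bulk homogenates fewer cells of a type and less RNA per cell cannot be told apart.

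At a presynaptic terminal, synaptic vesicles loaded with transmitter dock at the active zone, are primed, and fuse when calcium enters. Fusion is driven by SNARE proteins on the vesicle and on the plasma membrane, with synaptotagmins as calcium sensors and complexins, RIM and Munc13 proteins as regulators. Vesicle membrane is then retrieved by endocytosis and used again, so neurons of the cortex and hippocampus carry the transcripts of this machinery at high levels.

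The 19 libraries held 26934239 to 47648711 reads on genes, and the 36 genes took 1.44% to 1.94% of them. All 36 averaged at least 10 CPM, the read count scaled to library size, in both cohorts, and all passed the filter on low counts. Because the counts keep no strand, reads on bases shared by overlapping genes cannot be assigned to one of them. Ambiguous reads were tallied apart and counted for no gene. Where listed, they made up 7.63% to 8.53% of reads in PR-control and 6.83% to 8.32% in PR50. They were 8.56% in GR-control replicate 2, and 5.91% and 6.02% in GR100 replicates 2 and 3. Their part in the results was not tested. Over 10% of exonic bases were shared with another gene in 3 members: Syp (16.8%), Syt4 (14.5%) and Syn3 (14.1%).

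The libraries of the poly(PR) cohort differed within both groups in the share of reads from mitochondrial genes. They were divided into high-share and low-share libraries at 4.5%, a threshold set after the data had been seen. In PR50 replicates 1, 4 and 5 this share was 4.98%, 5.38% and 6.34%, and in PR50 replicates 2, 3, 6 and 7 it was 3.72% to 4.15%. In PR-control replicates 1 and 4 it was 4.76% and 5.66%, and in PR-control replicates 2 and 3 it was 3.76% and 3.75%. In 18 of 36 members every high-share PR50 library was below every low-share PR50 library, an order held by 15.9% of all genes tested. In 21 members both high-share PR-control libraries were below both low-share PR-control libraries, as for 34.2% of all genes. The median ratio of mean CPM, high-share over low-share, was 0.858 in PR50 and 0.876 in PR-control. The opposite order was seen in 3 members in PR50, against 15.6% of all genes, and in 9 members in PR-control, against 34.8% of all genes. Nsf, Napb, Sv2b, Syt1 and Syn3 were among the members that were low with a high share in both groups. In the poly(GR) cohort the share ran only from 4.15% to 4.76%. The part of this share in the results was not tested, and the results within the high-share and the low-share libraries are given beside those of Snap25, Stx1a, Syngr1 and Sv2b and of the whole list.

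Expressed per length, as CPM per kilobase of exon (RPKM), Snap25 was the most abundant member in every group. It stood at 364 ± 18.3 RPKM in PR50 and 435 ± 28.7 RPKM in PR-control (SD, n = 7 and 4), and at 407 ± 13.3 RPKM in GR100 and 452 ± 34.2 RPKM in GR-control (SD, n = 4 each). Vamp2 (299 ± 10.6 RPKM in PR50, 314 ± 19.7 RPKM in PR-control), Cplx1 (279 ± 24.7 RPKM in PR50, 302 ± 16.5 RPKM in PR-control) and Cplx2 (289 ± 23.6 RPKM in PR50, 301 ± 17.6 RPKM in PR-control) came next. The order among those 3 genes was within their spread. At the low end stood the synapsin gene Syn3 (0.776 ± 0.203 RPKM in PR50, 1.04 ± 0.282 RPKM in PR-control) and the priming gene Unc13c (7.11 ± 0.553 RPKM in PR50, 7.78 ± 0.665 RPKM in PR-control). The first 10 places in PR50 and in PR-control were held by Snap25, Vamp2, the complexins, Rab3a, Dnm1, Syn1, Syt1, Syp and Syngr1.

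In the brains that received poly(PR), the genes of the vesicle and release machinery mostly had lower levels than in the controls, by small amounts, and none of the 36 passed the test over all genes. The log2 fold change, PR50 over PR-control, was below 0 for 34 of the 36 genes, with a median of -0.23, which is a change of -15.0%. The exceptions were the calcium sensor gene Doc2b (0.21) and the vesicle GTPase gene Rab3b (0.13). Over all 19156 genes tested 48.9% had a value below 0 and the median was 0.0062. Over the genes with at least 10 CPM 55.8% were below 0 and the median was -0.027. By the quasi-likelihood test of edgeR, with p-values adjusted after Benjamini and Hochberg over all genes, 0 of 36 members were called at 0.05, where 0.0574% of all genes were called.

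At an unadjusted p under 0.05, 17 members were lower and 1, Doc2b, was higher. Of all genes tested 7.31% were lower and 7.64% higher by that measure, and of genes with at least 10 CPM 10.2% were lower. All 7 PR50 libraries lay below all 4 PR-control libraries for 4 members (11.1%), namely Snap25, Syngr1, Stx1a and Syt7, against 1.32% of all genes. By DESeq2, which called 0.952% of all genes lower, 3 members fell: Snap25 (adjusted p = 0.00194), Syngr1 (adjusted p = 0.0118) and Stx1a (adjusted p = 0.0203). Leaving out PR50 replicate 6 gave 6 calls by edgeR, all lower, where 1.73% of all genes were called lower: Snap25, Pclo, Syn2, Sv2b, Syn3 and Syngr1 (adjusted p from 0.0332 to 0.0488). PR50 replicate 6 was the PR50 library whose mean level of the 36 genes lay nearest to PR-control. Leaving out any other single library, in 10 fits, gave 0 members called, where at most 0.0106% of all genes were called. With no filter on low counts 0 members were called (0.183% of all genes), and with no sex term also 0 (0.0209%). With the mitochondrial share as a covariate 12 members were called lower, against 3.22% of all genes.

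**Figure D1:**
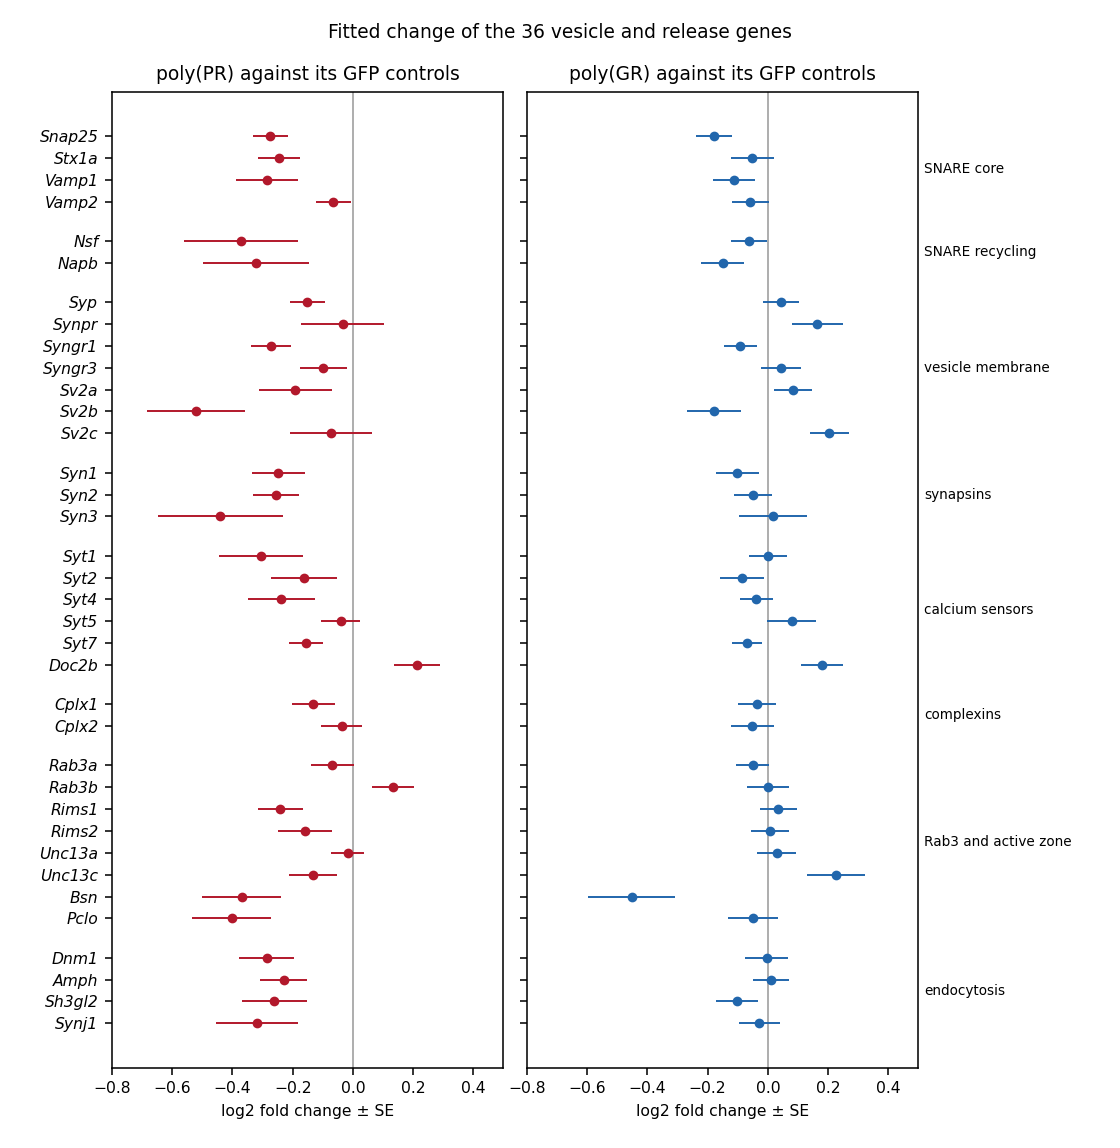
Log2 fold change with its standard error for each of the 36 genes, ordered by role, for PR50 over PR-control and GR100 over GR-control. In poly(PR) 34 points lie left of 0, and in poly(GR) 22 do.

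Snap25 had the smallest p-value of the 36. It encodes a plasma membrane SNARE and lies at chr2:136713453-136782428 on the plus strand (GRCm38). Snap25 had 2303 CPM at the lowest, 2495 CPM at the median and 2618 CPM at the highest in PR50. The 4 PR-control libraries had 2802, 3155, 3089 and 2774 CPM. Every PR50 library was below every PR-control library, and the log2 fold change was -0.27 (SE 0.059, adjusted p = 0.114 by edgeR). In the high-share libraries alone it was -0.27 and in the low-share libraries alone also -0.27. Stx1a, the gene of the partner SNARE syntaxin 1A at chr5:135023482-135051100 (plus strand), had 185 CPM at the lowest, 215 CPM at the median and 244 CPM at the highest in PR50. PR-control libraries had 272, 247, 250 and 272 CPM of Stx1a, again without overlap (log2 fold change -0.25, SE 0.069, adjusted p = 0.180). Within the high-share libraries its log2 fold change was -0.18, and within the low-share libraries -0.27.

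The vesicle SNARE gene Vamp2 (chr11:69088490-69092384, plus strand) was 1093, 1133 and 1214 CPM at the lowest, median and highest in PR50, and 1176, 1174, 1133 and 1306 CPM in PR-control. These groups overlapped, with a log2 fold change of -0.065 (SE 0.058, adjusted p = 0.546). Its relative Vamp1, the other synaptobrevin gene, was at -0.29 (SE 0.10). The genes of SNARE recycling, Nsf, the ATPase that takes spent SNARE complexes apart, and Napb, its adaptor beta-SNAP, had values of -0.37 (SE 0.19) and -0.32 (SE 0.18). Both had wide spreads: Nsf was 448 to 832 CPM in PR50 and 598 to 978 CPM in PR-control, with the low values of each group in its high-share libraries.

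Among the vesicle membrane genes, Syngr1, which encodes the membrane protein synaptogyrin 1 (chr15:80091334-80119501, plus strand), was the clearest. It had 480 CPM at the lowest, 548 CPM at the median and 601 CPM at the highest in PR50, against 675, 663, 662 and 635 CPM in PR-control. No PR50 library reached the lowest PR-control library, and the log2 fold change was -0.27 (SE 0.066, adjusted p = 0.137). Within the high-share libraries it was -0.35 and within the low-share libraries -0.21. Fitted with all 19 libraries together Syngr1 was called, with adjusted p = 0.0411 by edgeR where 0.388% of all genes were called lower. Sv2b, the gene of a vesicle glycoprotein, had the lowest log2 fold change of the 36, -0.52 (SE 0.16, adjusted p = 0.222). It was 245, 306 and 390 CPM at the lowest, median and highest in PR50, and 355, 522, 542 and 320 CPM in PR-control. The 2 lower PR-control values were those of the high-share libraries, and the groups overlapped.

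Sv2b stood at -0.43 in the high-share libraries, where it was called (adjusted p = 0.0423 by edgeR), and at -0.60 in the low-share libraries, where it was not (adjusted p = 0.107). Its relatives Sv2a, whose protein binds the antiseizure drug levetiracetam, and Sv2c had values of -0.19 (SE 0.12) and -0.073 (SE 0.14). Syp, the gene of synaptophysin, a marker of synaptic vesicles, was 607, 661 and 698 CPM at the lowest, median and highest in PR50, and 785, 722, 688 and 778 CPM in PR-control. Its groups overlapped in the range of PR-control replicate 3, and its log2 fold change was -0.15 (SE 0.058, adjusted p = 0.284). Syngr3, a further synaptogyrin gene, and Synpr, the gene of synaptoporin, were at -0.098 (SE 0.077) and -0.034 (SE 0.14).

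All 3 synapsin genes, whose proteins tether vesicles in the reserve pool, had values below 0. Syn1 was 391, 473 and 495 CPM at the lowest, median and highest in PR50, and 484, 562, 560 and 505 CPM in PR-control (log2 fold change -0.25, SE 0.087, adjusted p = 0.258). Syn2 was 389, 465 and 497 CPM at the lowest, median and highest in PR50, and 516, 554, 574 and 492 CPM in PR-control (log2 fold change -0.25, SE 0.077, adjusted p = 0.211). In both genes 1 PR-control library lay within the PR50 range. Syn3, the low-abundance member, was 6.73, 8.88 and 14.7 CPM at the lowest, median and highest in PR50, and 9.96, 16.0, 15.6 and 9.70 CPM in PR-control (log2 fold change -0.44, SE 0.21). Its highest PR50 value was in replicate 6. With 1 library left out at a time its log2 fold change ran from -0.63 (without PR50 replicate 6) to -0.27 (without PR-control replicate 2).

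Syngr1, Stx1a, Syn2 and Syn1 had 4 of the 10 smallest p-values in poly(PR). Bases before their start sites are shown, taken from RefSeq (GRCm38.p6). They run 5′ to 3′ on the gene's own strand, at chr15:80091084-80091333 (plus) for Syngr1, chr5:135023232-135023481 (plus) for Stx1a, chr6:115134652-115134901 (plus) for Syn2 and chrX:20921005-20921168 (minus) for Syn1. Capitals mark the letters found by a search on both strands. The Syn1 stretch has 164 bases and stops just before the gene's GENCODE start at 20921004. The RefSeq start lies further along, and from it TGACGTCA begins at -159 and TTCAGCACC at -232. Sv2b, Rims1, Dnm1, Pclo and Amph, also among the 10, were searched but are not printed. Sv2b and Amph held none of the letters, and the other genes only the GC box described below.
Syngr1: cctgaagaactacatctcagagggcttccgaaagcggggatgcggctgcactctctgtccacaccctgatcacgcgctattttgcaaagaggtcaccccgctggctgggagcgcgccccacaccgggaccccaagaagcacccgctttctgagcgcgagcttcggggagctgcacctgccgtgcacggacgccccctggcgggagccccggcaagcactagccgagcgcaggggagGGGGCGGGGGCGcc
Stx1a: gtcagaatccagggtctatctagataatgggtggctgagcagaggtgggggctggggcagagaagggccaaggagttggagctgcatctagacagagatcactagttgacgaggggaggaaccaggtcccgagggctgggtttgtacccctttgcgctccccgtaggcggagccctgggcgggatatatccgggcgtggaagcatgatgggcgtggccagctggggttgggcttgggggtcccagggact
Syn2: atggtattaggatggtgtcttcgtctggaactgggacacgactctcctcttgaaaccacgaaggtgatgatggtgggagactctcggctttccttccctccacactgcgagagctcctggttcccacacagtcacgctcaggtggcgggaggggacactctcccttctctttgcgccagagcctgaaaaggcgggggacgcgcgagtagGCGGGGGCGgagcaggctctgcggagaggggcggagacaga
Syn1: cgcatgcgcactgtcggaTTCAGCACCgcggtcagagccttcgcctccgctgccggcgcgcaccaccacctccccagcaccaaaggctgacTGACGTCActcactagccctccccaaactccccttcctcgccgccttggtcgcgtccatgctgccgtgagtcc

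Of the 36 members 27 had an entry in the RefSeq promoter table, with 36 promoters among the 32851 of all genes, each of 250 bases before and 50 after the start. Their median GC content was 61.8%, against 52.7% over all promoters. The EGR letters GCGGGGGCG are recognised by zinc-finger factors of the early growth response family. They were in 4 of the 36 member promoters (Cplx1, Sh3gl2, Syn2 and Syngr1) and in 2.91% of all promoters. The cAMP response element TGACGTCA was in 2 of the 36 member promoters (Sh3gl2 and Syn1) and in 1.79% of all promoters. The left part of the neuronal silencer element RE1, TTCAGCACC, was in 2 of the 36 member promoters (Syn1 and Unc13a) and in 0.371% of all promoters. The GC box GGGGCGGGG was in 12 of the 36 member promoters and in 11.4% of all promoters, and in Syngr1 it overlapped the EGR letters. In Stx1a the GC box began at the start site, so the stretch printed for it holds no capitals. These matches describe letters only, the shares were not matched for GC content, and binding was not measured.

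The calcium sensors were less alike. Syt1, the gene of the fast sensor of synchronous release, was 866, 1046 and 1327 CPM at the lowest, median and highest in PR50, and 1082, 1568, 1555 and 1073 CPM in PR-control. The groups overlapped, and the lower PR-control pair was again the high-share pair (log2 fold change -0.31, SE 0.14, adjusted p = 0.333). Syt7, the gene of a slower sensor of high calcium affinity, is described here because its groups did not overlap, so it was chosen after its values were seen. It was 290, 309 and 328 CPM at the lowest, median and highest in PR50, and 349, 340, 336 and 355 CPM in PR-control. Its log2 fold change was -0.16 (SE 0.057, adjusted p = 0.266). Syt2, a fast sensor, Syt4, a synaptotagmin of dense-core vesicles, and Syt5, a further vesicle synaptotagmin, had values of -0.16 (SE 0.11), -0.24 (SE 0.11) and -0.040 (SE 0.065). Doc2b, a high-affinity sensor linked to spontaneous release, had the one unadjusted p under 0.05 above 0. It was 63.1, 66.2 and 82.1 CPM at the lowest, median and highest in PR50, and 61.5, 56.3, 58.3 and 66.9 CPM in PR-control, with overlap (log2 fold change 0.21, SE 0.076, adjusted p = 0.262).

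**Figure D2:**
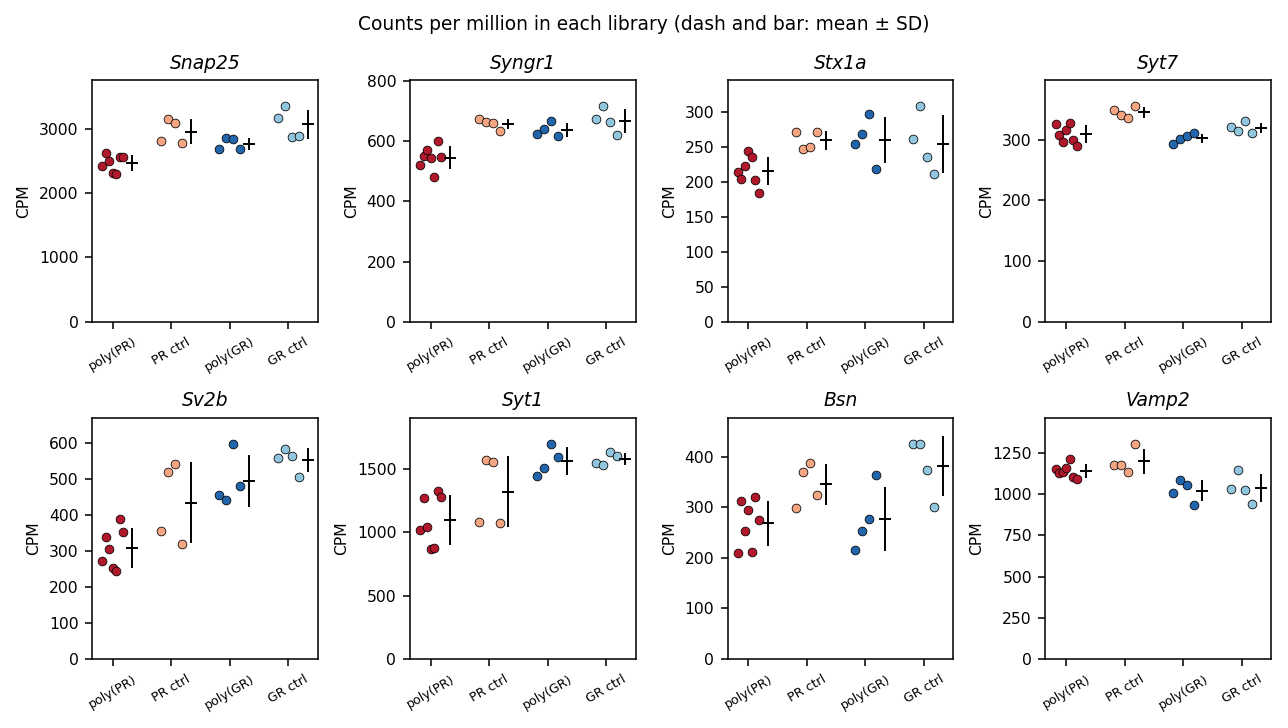
CPM of 8 genes in each library, with the mean and SD of each group, for PR50 (axis label poly(PR)), PR-control (PR ctrl), GR100 (poly(GR)) and GR-control (GR ctrl). PR50 points lie below all PR-control points for Snap25, Syngr1, Stx1a and Syt7, and PR-control splits into a high and a low pair for Sv2b and Syt1.

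The complexin genes Cplx1 and Cplx2, whose proteins clamp and assist the SNARE complex, had values of -0.13 (SE 0.072) and -0.037 (SE 0.068). Among the active zone genes, Rims1 encodes a scaffold that links Rab3 on the vesicle to the priming machinery. It was 170, 190 and 198 CPM at the lowest, median and highest in PR50, and 193, 236, 239 and 217 CPM in PR-control (log2 fold change -0.24, SE 0.075, adjusted p = 0.222). Only PR-control replicate 1 fell into the PR50 range. Pclo, the gene of the giant scaffold piccolo, was 168, 187 and 257 CPM at the lowest, median and highest in PR50, and 238, 286, 303 and 216 CPM in PR-control, with overlap (log2 fold change -0.40, SE 0.13, adjusted p = 0.235). Bsn, the gene of its partner bassoon, was 211, 276 and 320 CPM at the lowest, median and highest in PR50, and 298, 371, 388 and 325 CPM in PR-control (log2 fold change -0.37, SE 0.13, adjusted p = 0.258).

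Further active zone members were nearer 0. Rims2, a second RIM gene, was at -0.16 (SE 0.089), the priming genes Unc13a and Unc13c at -0.018 (SE 0.054) and -0.13 (SE 0.079), and the vesicle GTPase gene Rab3a at -0.068 (SE 0.071). All 4 endocytosis genes had an unadjusted p under 0.05 and a value below 0. Dnm1, the gene of the dynamin that cuts vesicles from the membrane, was 869, 1007 and 1119 CPM at the lowest, median and highest in PR50, and 1126, 1328, 1308 and 1060 CPM in PR-control (log2 fold change -0.29, SE 0.092, adjusted p = 0.233). Amph, the gene of amphiphysin, which brings dynamin to the vesicle neck, was 167, 189 and 213 CPM at the lowest, median and highest in PR50, and 208, 244, 235 and 198 CPM in PR-control (log2 fold change -0.23, SE 0.079, adjusted p = 0.255). PR-control replicate 4 lay within the PR50 range for both genes, and PR-control replicate 1 for Amph. Sh3gl2, the gene of endophilin A1, and Synj1, the gene of the lipid phosphatase that helps to strip the clathrin coat, had values of -0.26 (SE 0.11) and -0.32 (SE 0.14).

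Taken per library, the mean log2 CPM of the 36 genes relative to the PR-control mean ran from -0.33 to -0.031 in PR50 and from -0.10 to 0.11 in PR-control. PR50 replicates 6 and 7 lay within the PR-control range, and PR-control replicates 1 and 4, the high-share pair, were the low ones of their group. Within the high-share libraries (3 PR50 and 2 PR-control) the median log2 fold change of the members was -0.25, and within the low-share libraries (4 PR50 and 2 PR-control) it was -0.20. In the high-share libraries 3 members were called lower, Vamp1, Sv2b and Nsf, against 0.894% of all genes, and in the low-share libraries 0 members and 0 genes (0.0%) were called. That division was added after the data had been seen.

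**Figure D3:**
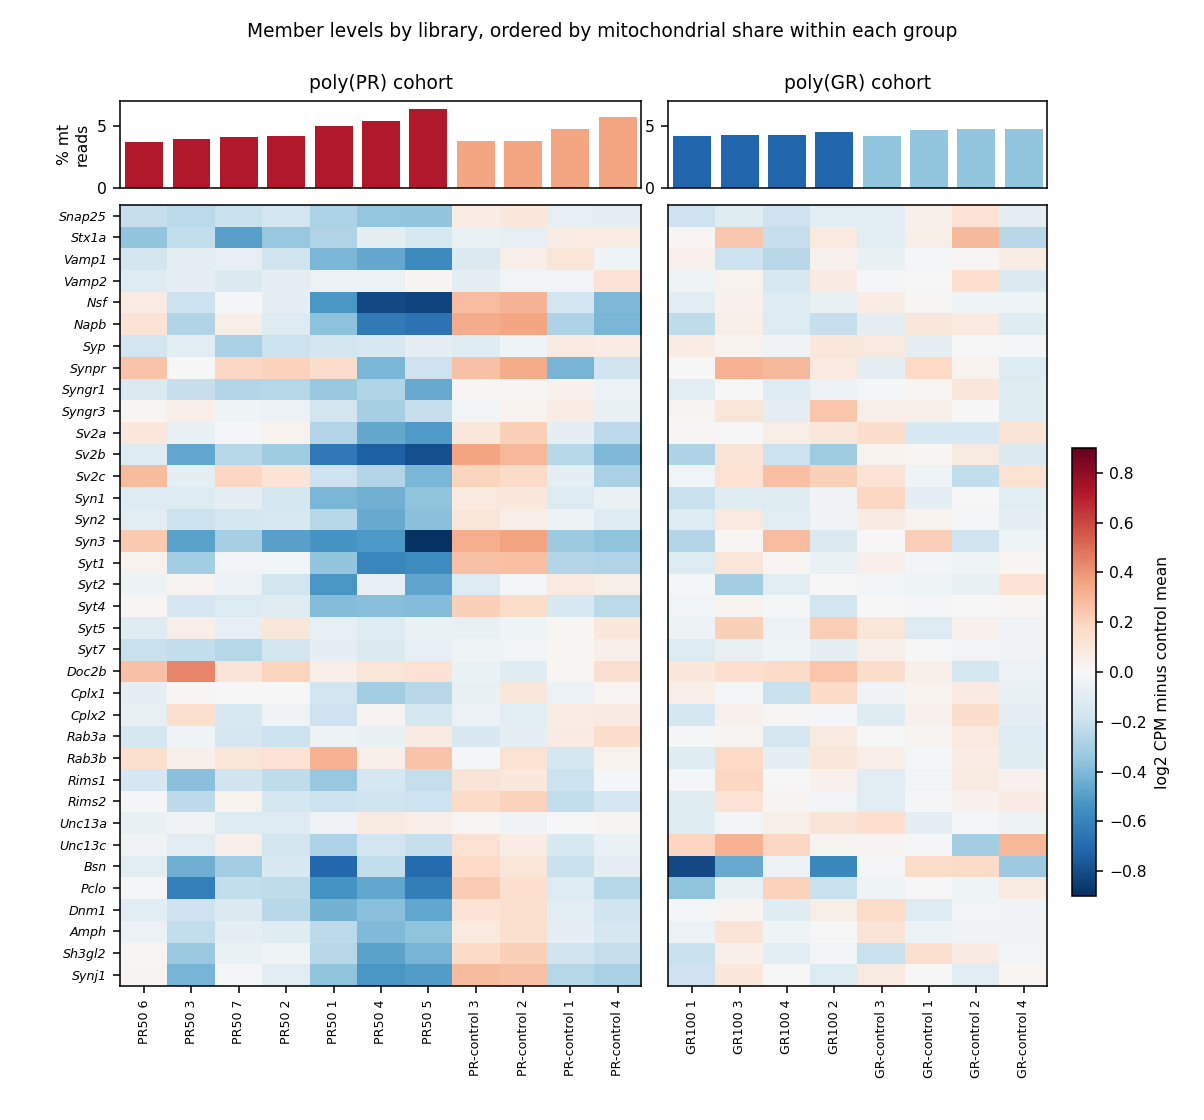
Colour gives log2 CPM minus the control mean of the cohort for each gene (rows) and library (columns), treated libraries left of their controls and ordered by mitochondrial share, which the bars above show as a percentage of gene reads. In the poly(PR) cohort the columns with the taller bars are bluer in both groups.

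Marker genes of cell types were measured in the same libraries. The pan-neuronal list had 10 of 10 genes with a log2 fold change below 0 (median -0.17) and 0 called, and its summed level was 3361 to 3889 CPM in PR50 and 3887 to 4238 CPM in PR-control. The excitatory cortex and hippocampus list was at a median of -0.16 (7 of 8 below 0) and the dentate gyrus list at -0.33 (5 of 5 below 0). The striatal medium spiny neuron list went the other way, with 0 of 9 genes below 0, 0 called, a median of 0.52, and a summed level of 1455 to 2229 CPM in PR50 and 1252 to 1285 CPM in PR-control. The striatum is not named in the tissue label. Microglia markers had a median of 0.32, interneuron markers 0.040, astrocyte markers 0.024, oligodendrocyte markers -0.025, endothelial markers -0.021 and choroid plexus markers -0.45. Of the astrocyte markers 1 rose past the test: Gfap, the gene of an astrocyte intermediate filament, had 467 ± 90.1 CPM in PR50 and 244 ± 53.6 CPM in PR-control (SD, n = 7 and 4), with a log2 fold change of 1.01 (SE 0.15, adjusted p = 0.0429 by edgeR). Over all genes 0.0365% were called higher by edgeR. Below 0 were 2 of the 6 astrocyte markers (lowest -0.24), and 1 was lower at an unadjusted p under 0.05. Microglia markers had 2 of 8 below 0, with 4 higher and 1 lower by that measure. Among all genes 7.31% were lower and 7.64% higher. Of 6 thalamus and hindbrain markers 3 were abundant enough to be tested (median -0.27). With the striatal score as a covariate 34 of 36 members had a value below 0 (median -0.28) and 0 members and 0 genes (0.0%) were called. That score did not overlap between PR50 (0.19 to 0.85) and PR-control (-0.014 to 0.026). The fit therefore cannot separate the group from the score, and no conclusion is drawn from it. The part of these cell types in the members' values was not tested.

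**Figure D4:**
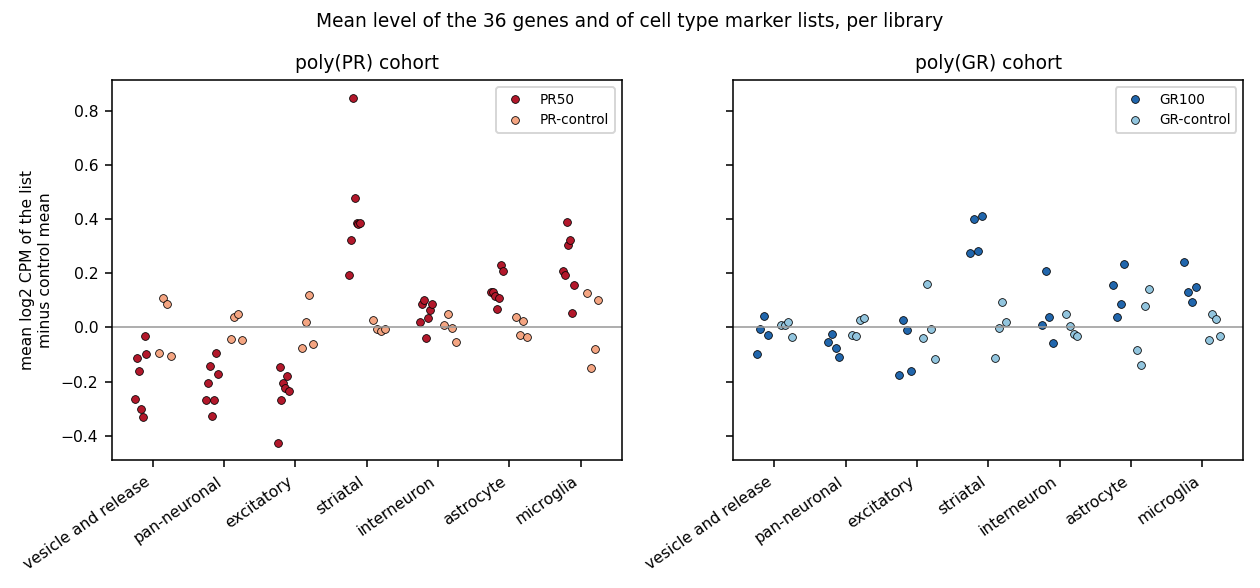
Mean log2 CPM of each gene list minus its control mean, one point per library, for PR50 and PR-control (left) and GR100 and GR-control (right). The 7 PR50 points of the 36 genes run from -0.33 to -0.031 and the striatal points from 0.19 to 0.85.

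In the brains that received poly(GR), most members differed from the controls by little. Of the 36 genes 22 had a log2 fold change, GR100 over GR-control, below 0, with a median of -0.038, which is a change of -2.58%. Over all 18511 genes tested 49.0% were below 0 and the median was 0.0032. By edgeR's quasi-likelihood test 0 of 36 members were called, at a background of 0.173%. At an unadjusted p under 0.05 there were 2 lower members, Bsn and Snap25, and 3 higher ones, Sv2c, Doc2b and Unc13c, where 5.25% of all genes were lower and 6.23% higher. DESeq2 called 0 members, at a background of 0.792%.

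Bsn had the lowest log2 fold change of the 36 in poly(GR), and lies at chr9:108096022-108190384 (minus strand). It had 216, 253, 276 and 365 CPM in GR100, against 425, 426, 374 and 302 CPM in GR-control. GR100 replicate 4 was above the lowest GR-control library, so the groups overlapped, and the log2 fold change was -0.45 (SE 0.14, adjusted p = 0.277). Without GR100 replicate 4, the one GR100 library in that overlap, it fell by 0.78 on the log2 scale (adjusted p = 0.00671 by edgeR). In that fit 0.199% of all genes were called lower. Leaving out any of the other 7 libraries gave 0 members called, where 0.0% to 0.186% of all genes were called. With 1 library left out at a time the log2 fold change of Bsn ran from -0.78 to -0.36. Its scaffold partner Pclo had 216, 242, 265 and 320 CPM in GR100 and 276, 270, 270 and 294 CPM in GR-control (log2 fold change -0.049, SE 0.082).

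Snap25 had 2691, 2853, 2834 and 2684 CPM in GR100, against 3160, 3352, 2866 and 2890 CPM in GR-control. All 4 GR100 libraries were below all 4 GR-control libraries, though the nearest pair, 2853 and 2866 CPM, were close, and the log2 fold change was -0.18 (SE 0.061, adjusted p = 0.311). Syt7 had 293, 300, 305 and 311 CPM in GR100, against 320, 315, 331 and 312 CPM in GR-control (log2 fold change -0.070, SE 0.050, adjusted p = 0.629). These groups also did not overlap, though here too the nearest pair, 311 and 312 CPM, were close. These 2 were the members with no overlap in poly(GR), which is 5.56% of the 36 against 2.41% of all genes. The same 2 members had every treated library below every control in both cohorts, as did 0.11% of the 18203 genes tested in both.

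Sv2c had 81.8, 96.6, 91.6 and 100 CPM in GR100, and 81.0, 71.3, 90.7 and 91.5 CPM in GR-control, with overlap (log2 fold change 0.20, SE 0.065, adjusted p = 0.277). Doc2b had 64.7, 71.8, 67.2 and 68.0 CPM in GR100, and 62.6, 54.1, 67.6 and 58.4 CPM in GR-control (log2 fold change 0.18, SE 0.068, adjusted p = 0.347). The groups of Doc2b overlapped through GR-control replicate 3. Unc13c had 83.1, 73.9, 90.2 and 82.5 CPM in GR100, and 71.5, 58.8, 73.6 and 89.4 CPM in GR-control (log2 fold change 0.23, SE 0.096, adjusted p = 0.401), and these values overlapped too. With no filter on low counts Bsn, Sv2c and Unc13c were called, at a background of 1.46%.

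The remaining SNARE and vesicle genes gave overlapping groups in poly(GR). Stx1a had 255, 269, 298 and 218 CPM in GR100, and 261, 309, 237 and 212 CPM in GR-control (log2 fold change -0.052, SE 0.071). Vamp2 had 1004, 1084, 1057 and 936 CPM in GR100, and 1028, 1145, 1024 and 941 CPM in GR-control (log2 fold change -0.059, SE 0.061). Neither differed between the groups by more than the spread of their libraries. Syp had 802, 821, 784 and 749 CPM in GR100, and 725, 763, 814 and 760 CPM in GR-control (log2 fold change 0.044, SE 0.060). Syt1 had 1447, 1511, 1701 and 1594 CPM in GR100, and 1550, 1533, 1631 and 1600 CPM in GR-control (SE 0.064 around a log2 fold change of 6.8e-05). The groups overlapped for Syp and for Syt1 as well.

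For the other genes of the list, the log2 fold change in poly(GR) was lowest for Sv2b (-0.18, SE 0.090) and highest for Synpr (0.16, SE 0.084), apart from those already described. Napb stood at -0.15, Vamp1 at -0.11, Syn1 and Sh3gl2 at -0.10 each, Syngr1 at -0.092, Syt2 at -0.087, Nsf at -0.063, Syn2 at -0.050, Rab3a at -0.050, Syt4 at -0.038, Cplx1 at -0.037, Cplx2 at -0.051 and Synj1 at -0.028. Sv2a stood at 0.084, Syt5 at 0.079, Syngr3 at 0.044, Rims1 at 0.035, Unc13a at 0.029, Syn3 at 0.018, Amph at 0.011 and Rims2 at 0.0072, with Dnm1 at -0.0043 and Rab3b at -7.1e-05. In this cohort too the striatal markers were higher: all 9 had a log2 fold change above 0 (median 0.37), 5 rose past the test, and their summed level was 1595 to 1778 CPM in GR100 and 1260 to 1423 CPM in GR-control. The choroid plexus list was at a median of -2.07, with 3 of 5 genes called lower and a summed level of 6.47 to 116 CPM in GR100 and 118 to 347 CPM in GR-control. Of the 8 excitatory markers 1 fell past the test, with a list median of -0.090. Over all genes in poly(GR) 0.081% were called higher and 0.0918% lower by edgeR. Median values were -0.079 for pan-neuronal, -0.069 for dentate gyrus, 0.058 for interneuron, 0.16 for microglia, 0.23 for astrocyte, 0.00028 for oligodendrocyte, 0.012 for endothelial and 0.31 for thalamus and hindbrain markers (3 of 6 tested). The part of these cell types in the members' values was not tested.

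The effect of poly(PR) minus the effect of poly(GR), from one fit of all 19 libraries, was below 0 for 32 of the 36 genes (median -0.19), against 51.6% of all genes (median -0.0085). None of the 36 was called, and neither was any of the 19863 genes (0.0%). At an unadjusted p under 0.05 there were 5 members, all lower, where 2.14% of all genes were lower, and the lowest adjusted p among members was 0.786 by edgeR. DESeq2 called 7 genes (0.0179%) and 0 members. Rims1 had the smallest p, at -0.28 (SE 0.11). Rims1 had 246, 256, 284 and 249 CPM in GR100, and 245, 264, 232 and 257 CPM in GR-control, with overlap, beside the lower PR50 values given above.

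Unc13c stood at a difference of -0.34 (SE 0.14), Syp at -0.19 (SE 0.079), Amph at -0.25 (SE 0.12) and Dnm1 at -0.28 (SE 0.13). Unc13c was 56.4, 60.7 and 70.5 CPM at the lowest, median and highest in PR50, and 61.9, 71.3, 75.0 and 65.4 CPM in PR-control, with overlap. For Snap25 the difference was -0.11 (SE 0.098), and for Bsn 0.085 (SE 0.23). A difference between the effects of the 2 repeat proteins was therefore not shown for any member. In both cohorts 21 members had a log2 fold change below 0, where 34 of 36 were below 0 in poly(PR) and 22 of 36 in poly(GR). Whether the cohorts share members beyond those 2 counts was not tested.

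Beyond the 36, a further 53 genes of the same pathway were examined, and 0 were called in either cohort by edgeR. Of all genes 0.0574% were called in poly(PR) and 0.173% in poly(GR). In poly(PR) 42 of 53 were below 0 (median -0.14), with 12 lower and 1 higher at an unadjusted p under 0.05. By that measure 7.31% of all genes were lower and 7.64% higher. The smallest p-values were those of Rph3a, the gene of the Rab3 effector rabphilin (295 ± 17.9 CPM in PR50, 376 ± 13.0 CPM in PR-control, log2 fold change -0.35, SE 0.063, adjusted p = 0.0852). Next were Rims3, a short RIM gene (205 ± 19.1 CPM in PR50, 263 ± 10.7 CPM in PR-control, log2 fold change -0.37, SE 0.079, adjusted p = 0.114), and Rimbp2, the gene of a RIM-binding scaffold (112 ± 10.4 CPM in PR50, 142 ± 12.3 CPM in PR-control, log2 fold change -0.37, SE 0.082, adjusted p = 0.119).

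In poly(GR) 33 of the 53 were below 0 (median -0.020), with 1 lower and 4 higher at an unadjusted p under 0.05. By that measure 5.25% of all genes were lower and 6.23% higher. Syt6, a synaptotagmin gene, was higher at 45.1 ± 4.75 CPM in GR100 and 38.6 ± 3.09 CPM in GR-control (log2 fold change 0.28, SE 0.058, adjusted p = 0.0945 by edgeR). Slc32a1, the gene of the vesicular GABA transporter, stood at 117 ± 12.5 CPM in GR100 and 99.3 ± 16.9 CPM in GR-control (log2 fold change 0.31, SE 0.099, adjusted p = 0.281). Snap91, the gene of a clathrin adaptor of vesicle endocytosis, was at 336 ± 8.39 CPM in GR100 and 368 ± 14.8 CPM in GR-control (log2 fold change -0.12, SE 0.052, adjusted p = 0.413). The single higher gene in poly(PR) was also Syt6, at 0.33 (SE 0.12, adjusted p = 0.259).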

How the data were processed

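RNA was sequenced from 19 mouse brain homogenates, 1 library per mouse. The labels' protocols name total RNA and a stranded paired-end total RNA kit, whereas the molecule field says polyA RNA. The tools were Trimmomatic 0.36 and STAR 2.5.2b, per the submitters' processing notes, which name the builds mm10 and mm9 without a role. The annotation release is not given in the sources used here. What the authors deposited are raw counts, whole numbers with no scaling, in 14 files of 4 columns and 5 of 2 columns. Where strands are listed apart they hold equal shares, and the unstranded column was taken. Totals such as reads on no gene (6.57% to 13.4% of reads, where listed) were dropped before scaling and testing. The repeat tables were not used here.

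GENCODE M21 (GRCm38) gave symbols, exons and positions. Genes were tested with edgeR 4.0.16 (R 4.3.3) using quasi-likelihood fits of group and sex on TMM-scaled counts of genes kept by filterByExpr. Calls were made at a Benjamini-Hochberg adjusted p of 0.05 over all genes, each cohort with its own controls. The difference of effects used all 19 libraries. CPM was scaled by TMM within the cohort, and RPKM divides it by merged exonic length. List scores average log2 CPM (prior count 2) over the genes. DESeq2 1.42.0, RLE scaling, no filter, no sex term, covariates, table layout and leaving out each library were tried as alternatives. The fitting was tested on simulated counts. Every pair of libraries within a group differed beyond sampling noise, with a chi-square of at least 5.59 per degree of freedom. Replicate numbers follow accession order and pair nothing. The design text counts separate mice.

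All 36 members are reported. Values per library are given for the 10 smallest p-values in poly(PR), the 4 smallest in poly(GR), the 3 smallest for the difference, and Snap25, Stx1a, Vamp2, Syt1 and Syp. Bsn and Doc2b in poly(PR), Pclo and Rims1 in poly(GR), Syt7 and Syn3 were added after their values were seen. Of the other pathway genes the 3 with the smallest p-values per cohort are named. The members and lists were chosen with earlier results of these data known.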

Additional observations from a re-analysis of the deposited data

Results flagged for a closer look

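Among the 144 groups of member values checked, 2 had a library far from the rest of its group, where chance gives about 1 in 20 groups. Syn3, the low-abundance synapsin gene, was at 14.7 CPM in PR50 replicate 6, and the other PR50 libraries had 6.73 to 10.1 CPM. Amph, the amphiphysin gene, was at 251 CPM in GR-control replicate 3, and the other GR-control libraries had 224 to 228 CPM. The reason for either was not tested.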

How the results depend on the processing

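In poly(PR) the direction of most members was kept under the alternatives, and the calls were not. In poly(GR) the directions were less stable, and many members changed sign at least once, as listed below. Counted over members and other settings, the sign was reversed 42 times in poly(GR) and 12 times in poly(PR). With 1 library left out at a time it was reversed 29 times in poly(GR) and 4 times in poly(PR). In poly(PR) the number of members called was 0 by the edgeR test, 3 with DESeq2, 1 with all 19 libraries in one fit, 12 with the mitochondrial share as covariate, 3 in the high-share libraries alone, 0 under 6 other settings, and 0 to 6 when 1 library at a time was left out (6 without PR50 replicate 6). In poly(GR) 0 members were called by the edgeR test (0.173% of all genes) and 3 with no filter on low counts (1.46% of all genes). In the 4-column tables Bsn stood at -0.69, and the only control left there is taken to vary as the treated libraries do. Leaving out 1 library at a time gave 0 to 1. The 1 was without GR100 replicate 4, where 0.199% of all genes were called lower. The members' median in poly(GR) was -0.038, against -0.13 with the striatal score as covariate and 0.022 in the 4-column tables. The striatal score did not overlap between GR100 (0.27 to 0.41) and GR-control (-0.11 to 0.093), so the fit with it cannot separate the group from the score. The cause of these changes was not tested. The settings on the mitochondrial share other than the covariate were added after the data had been seen. All members averaged at least 10 CPM, with Syn3 the shallowest. No paired analysis was made, because each library came from a separate mouse and the labels pair none of them.

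Signs changed for members whose values lay near 0 in most cases, and no member was called by the edgeR test. In poly(PR), the sign changed without the library of highest mitochondrial share in each group for Cplx2 (0.0093). With the mitochondrial share as covariate it changed for Synpr (0.018). With no sex term it changed for Synpr (0.014). In the high-share libraries it changed for Unc13a (0.060), Synpr (0.0016) and Rims2 (0.0077). In the low-share libraries it changed for Syt2 (0.024), Syt5 (0.066), Cplx2 (0.066) and Syngr3 (0.0092). With the striatal score as covariate it changed for Unc13a (0.022) and Doc2b (-0.00025). In poly(GR), the sign changed with DESeq2 for Syt1 (-0.0015). With RLE scaling it changed for Syt1 (-0.0023). With all 19 libraries in one fit it changed for Rab3b (0.023), Syn3 (-0.00051) and Unc13a (-0.0037). With the mitochondrial share as covariate it changed for Sh3gl2 (0.011), Pclo (0.064), Syt1 (-0.014), Amph (-0.057) and Cplx2 (0.022). With no filter it changed for Dnm1 (0.0098) and Rab3b (0.014). With no sex term it changed for Rab3b (0.024), Cplx1 (0.0099), Stx1a (0.029), Syn3 (-0.014) and Syt1 (-0.014). In the 2-column tables it changed for Syt5 (-0.018), Syn3 (-0.016), Syt1 (-0.048), Unc13a (-0.0067), Amph (-0.042), Rims2 (-0.012) and Syngr3 (-0.043). In the 4-column tables it changed for Dnm1 (0.069), Rab3b (0.080), Cplx1 (0.0084), Syn2 (0.048), Nsf (0.027) and Synj1 (0.092). With the striatal score as covariate it changed for Napb (0.058), Syp (-0.21), Sv2a (-0.15), Sh3gl2 (0.040), Pclo (0.10), Syt5 (-0.46), Sv2b (0.010), Unc13a (-0.49), Amph (-0.093), Synj1 (0.15), Syngr3 (-0.35) and Syt4 (0.22). In poly(PR), leaving out 1 library at a time changed the sign of Synpr (-0.13 to 0.087) and Sv2c (-0.18 to 0.0090). In poly(GR), leaving out 1 library at a time changed the sign of Amph (-0.025 to 0.063), Rims2 (-0.032 to 0.041), Rab3b (-0.043 to 0.044), Stx1a (-0.11 to 0.017), Syn3 (-0.15 to 0.18), Syt1 (-0.043 to 0.028), Cplx2 (-0.14 to 0.0079), Dnm1 (-0.059 to 0.093), Pclo (-0.18 to 0.010), Synj1 (-0.084 to 0.0042), Unc13a (-0.0092 to 0.063), Rims1 (-0.0030 to 0.062) and Cplx1 (-0.075 to 0.024).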
